A study of Rattus norvegicus with 12 samples.

Results

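A set of 53 genes had lower mRNA levels on soft hydrogel than on plastic in each of 6 paired comparisons of adult rat ventricular fibroblasts. The genes were chosen by their measured values. In each pair, a soft gel and a plastic library with the same passage and replicate number, the level in counts per 1000000 counts of the library (CPM) was compared as log2(CPM + 1). A gene entered the set when the soft gel minus plastic difference, called the pair difference here, was -0.7 or lower in all 6 pairs. The rule took 53 of the 32623 genes in the table, or 0.162%, and all 53 passed the filter on low counts that left 14660 genes for testing. The opposite rule, +0.7 or higher in all 6 pairs, took 154 genes. The lower level on soft gel is fixed by the choice of genes and is given below as a description, with no test.

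The cells were primary fibroblasts of the heart from wild-type rats, grown in DMEM/F-12 with 20% fetal bovine serum. They were either moved to soft poly(ethylene glycol) norbornene hydrogel, a flat synthetic gel, or stayed on the polystyrene of standard culture dishes, called plastic here. This was done at passage 6 and at passage 3, with 48 hours on the gel. Poly(A)-selected RNA of 3 libraries per group was sequenced, which gave 12 libraries in 4 groups: passage 6 and passage 3 on soft gel, and the same passages on plastic. The replicates are labelled as biological, with no word on separate animals or cultures, so a p-value covers the spread of these libraries and no more. Every group, plastic included, had been expanded in culture, and no freshly isolated cells are among the samples.

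Fibroblasts sense the stiffness of what they grow on through integrin adhesions and the tension of the actin cytoskeleton. On a rigid surface, cardiac fibroblasts spread, build stress fibres and take on features of myofibroblasts, the contractile, matrix-producing cells of scar tissue. Repeated passaging on plastic prolongs that exposure. The genes are reported by Ensembl identifier, because the count table carries no gene names and the RefSeq table used here, of assembly GRCr8, matched 0 of them. No role, sequence or cell type marker could therefore be given for a gene, and the labelled cell type was not checked against its markers. In bulk RNA, fewer cells that express a gene and less RNA per cell cannot be told apart.

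Library totals ran from 47834926 to 71464905 counts, with 15927 to 16746 genes detected. When each library was scaled by its total, the median pair difference over all tested genes was above 0, at 0.12, 0.17 and 0.11 for the passage 6 pairs and 0.096, 0.075 and 0.090 for the passage 3 pairs (log2). With libraries scaled by TMM, which sets libraries level on the bulk of genes, it lay between -0.018 and 0.010. Applied to TMM-scaled levels, the rule took 94 genes, and with DESeq2 size factors 93. All 53 genes were within both larger sets, so the choice under total counts was the narrower one.

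The set spanned a wide range of abundance. The mean level over the 12 libraries ran from 1.88 to 2902 CPM, with a median of 37.3 and quartiles of 8.07 and 96.9 CPM, against a median of 17.0 CPM over all tested genes. Counted by class, 14 of the 53 genes lay under 10 CPM, 12 reached 100 CPM (22.6%, against 12.7% of tested genes) and 3 reached 1000 CPM (5.66%, against 0.682%). CPM is not corrected for gene length, so these figures describe counts and not the number of transcripts of one gene against another. The mean level over the soft gel libraries had a median of 20.2 CPM across the set, and that over the plastic libraries 49.9 CPM. These are separate medians and do not belong to the same gene.

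Added up, the 53 genes supplied 6954, 6416 and 4448 CPM in the soft gel libraries of passage 6 (5939 ± 1319, SD, n = 3) and 7355, 6829 and 7667 CPM in those of passage 3 (7284 ± 423, SD, n = 3). They supplied 17051, 17245 and 12086 CPM in the plastic libraries of passage 6 (15461 ± 2924, SD, n = 3) and 15405, 14601 and 15748 CPM in those of passage 3 (15251 ± 589, SD, n = 3). Replicate 3 of passage 6 was the lowest of its group on both substrates, and the libraries of passage 6 were more spread than those of passage 3. The ratio of soft gel to plastic was 0.408, 0.372 and 0.368 in the 3 pairs of passage 6 and 0.477, 0.468 and 0.487 in the 3 pairs of passage 3. All 3 ratios of passage 6 were below all 3 of passage 3. The sum leaned on few genes: the 2 most abundant members made up 46.1% to 54.4% of it on soft gel at passage 6, 57.3% to 61.3% on soft gel at passage 3, 33.6% to 47.1% on plastic at passage 6 and 52.0% to 53.6% on plastic at passage 3.

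**Figure D1:**
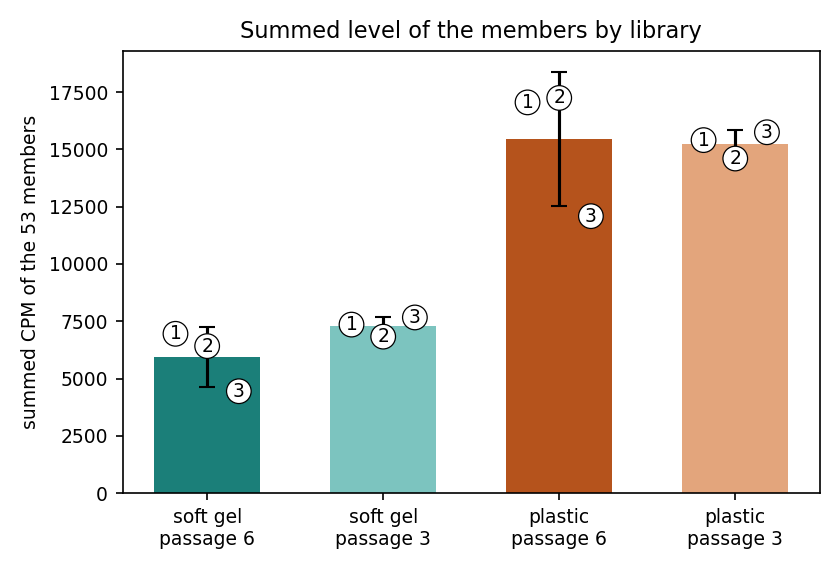
Summed level of the 53 genes in CPM, by group, with bars at the group mean, error bars of 1 SD (n = 3) and numbered points for the replicates. The soft gel libraries lie between 4448 and 7667 CPM and the plastic libraries between 12086 and 17245 CPM, a gap that follows from the choice of genes.

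The most abundant member, ENSRNOG00000002461, had 1841, 1338 and 843 CPM on soft gel at passage 6 and 2700, 2276 and 2946 CPM on soft gel at passage 3, against 3752, 2970 and 1572 CPM on plastic at passage 6 and 4932, 4489 and 5169 CPM on plastic at passage 3. On both substrates its 3 libraries of passage 6 lay below its 3 libraries of passage 3. Its edgeR log2 fold change of passage 6 over passage 3 was -1.03 (SE 0.327, adjusted p = 0.0656) on soft gel and -0.82 (SE 0.326, adjusted p = 0.122) on plastic, so neither passed the threshold of 0.05. Its pair differences of -1.03, -1.15 and -0.90 at passage 6 overlapped those of passage 3, which came to -0.87, -0.98 and -0.81.

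The next most abundant, ENSRNOG00000010233, had 1945, 1677 and 1208 CPM on soft gel at passage 6 and 1689, 1635 and 1752 CPM on soft gel at passage 3, against 4272, 3371 and 2486 CPM on plastic at passage 6 and 3158, 3099 and 3268 CPM on plastic at passage 3. Its libraries of the 2 passages overlapped on each substrate. It had the steadiest pair differences of the set, which ran from -1.13 to -0.90 with a range of 0.24 over the 6 pairs. The third member above 1000 CPM was ENSRNOG00000023148, named here for that level after its values were seen.

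The size of the pair difference varied from gene to gene, with an SD over the 53 genes of 0.479 at passage 6 and 0.428 at passage 3. By pair, the median over the 53 genes was -1.37, -1.46 and -1.47 at passage 6 and -1.19, -1.30 and -1.29 at passage 3. By gene, the mean over the 3 pairs ran from -3.28 to -0.78 at passage 6, with a median of -1.48, and from -2.75 to -0.85 at passage 3, with a median of -1.22. A mean of -1 or lower, which is a halving or more on this scale, was reached by 48 genes at passage 6 and by 39 at passage 3, and a mean of -2 or lower by 5 genes at each passage. Counted over single pairs, 17 genes were at -1 or lower in all 6. Since log2(CPM + 1) shrinks differences of low genes, the same fold gives a smaller value for a gene of a few CPM.

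**Figure D2:**
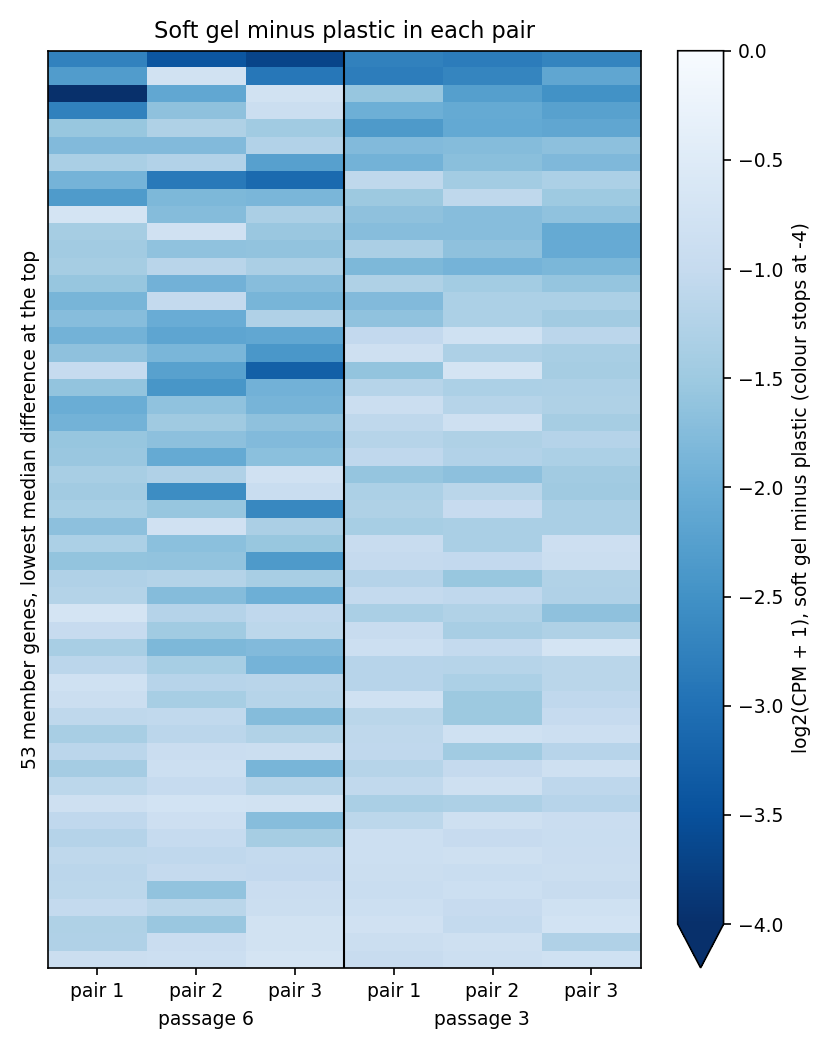
Soft gel minus plastic difference in log2(CPM + 1) for each of the 53 genes (rows) in each of the 6 pairs (columns, passage 6 left of passage 3). Every cell is at -0.7 or lower by the rule, and the shade shows that size differs from gene to gene, with medians per pair of -1.37 to -1.47 at passage 6 and -1.19 to -1.30 at passage 3.

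The lowest member by median pair difference, ENSRNOG00000013916, was close to undetected on the gel. It had 0.209, 0.0876 and 0 CPM on soft gel at passage 6, from 12, 5 and 0 counts, and 0.291, 0.850 and 0.238 CPM on soft gel at passage 3, from 17, 49 and 14 counts. It had 7.04, 10.6 and 11.7 CPM on plastic at passage 6 and 7.62, 12 and 7.04 CPM on plastic at passage 3. Every plastic library was above every soft gel library. The mean pair difference was -3.28 ± 0.485 at passage 6 and -2.75 ± 0.059 at passage 3 (SD, n = 3 pairs).

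The gene with the next lowest median, ENSRNOG00000034190, was much less even. Its levels were 13.7, 1.14 and 2.53 CPM on soft gel at passage 6 and 5.32, 6.45 and 13.7 CPM on soft gel at passage 3, against 71.4, 2.61 and 25.4 CPM on plastic at passage 6 and 43.2, 46.9 and 63.7 CPM on plastic at passage 3. At passage 6 replicate 2 was the lowest on both substrates, and its pair difference of -0.76 stood apart from -2.30 and -2.90 in the other pairs of that passage. Compared across pairs without regard to number, the soft gel library of replicate 1 lay above the plastic library of replicate 2, so the libraries of the 2 substrates overlapped at passage 6. The means were 5.78 CPM on soft gel and 33.1 CPM on plastic at that passage.

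How far the 6 pairs of a gene lay apart had a median of 0.88 over the set. The widest spread, 4.23, belonged to ENSRNOG00000003171, which is named here after its values were seen. On soft gel at passage 6 it had 0.383, 0.0701 and 0 CPM, against 42.9, 3.66 and 0.692 CPM on plastic at passage 6, and its pair differences there were -4.99, -2.12 and -0.76. Replicate 1 of plastic alone sets the first of these. The pairs of passage 6 spread more than those of passage 3 in general: the SD over 3 pairs had a median of 0.289 at passage 6 and 0.15 at passage 3, and the 3 pairs lay within 0.3 of each other for 14 genes at passage 6 and 28 genes at passage 3.

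Size bore little relation to abundance. The median of the mean pair difference was -1.25 at passage 6 and -1.13 at passage 3 for the 14 genes under 10 CPM, -1.59 and -1.22 for the 27 genes from 10 to 100 CPM, and -1.52 and -1.25 for the 12 genes at 100 CPM or more. Across the 53 genes, Spearman's rho between mean plastic level and median pair difference was -0.0713, where both measures come from the same libraries and genes are not independent replicates.

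The threshold cut through a continuum. The weakest pair of 14 members lay between -0.7 and -0.8. Just inside were ENSRNOG00000000156, with a weakest pair of -0.70004, and ENSRNOG00000009033, with -0.70007. Just outside were ENSRNOG00000004133, with -0.69953, and ENSRNOG00000014661, with -0.69684. The weakest pair was one of passage 3 for 32 of the 53 genes and one of passage 6 for 21, and the strongest pair was one of passage 6 for 41 genes.

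Between the passages, 34 genes had the larger difference in size at passage 6 and 19 at passage 3, and the median change, passage 6 minus passage 3, was -0.21. For 34 genes the 2 passages lay within 0.5 of each other. In 16 genes all 3 pair differences of passage 6 were below all 3 of passage 3, in 6 genes all 3 were above, and in 31 the pairs of the passages overlapped. Over all tested genes, 8.68% had all passage 6 pairs below all passage 3 pairs and 14.6% had them above. The rule used these same pair differences, so nothing is read from that comparison. Across the 53 genes the mean differences of the passages had a Pearson's r of 0.481 and a Spearman's rho of 0.349, as a description over genes that share the same 12 libraries.

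**Figure D3:**
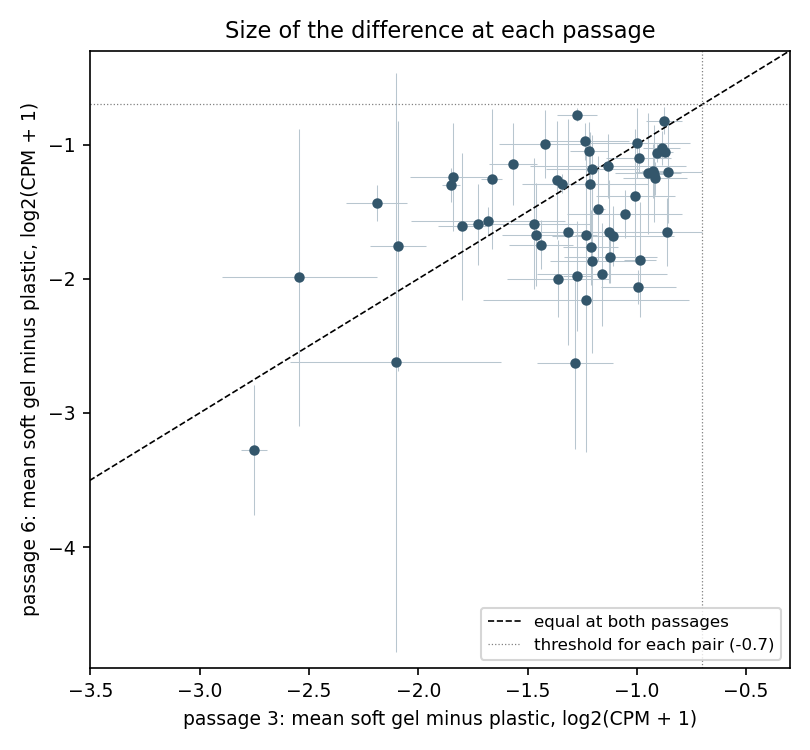
Mean soft gel minus plastic difference in log2(CPM + 1) at passage 6 against that at passage 3, 1 point per gene (53 genes), with error bars of 1 SD over 3 pairs and a line where the passages are equal. The genes run from -3.28 to -0.78 at passage 6 and from -2.75 to -0.85 at passage 3, and 34 are larger in size at passage 6.

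ENSRNOG00000015904 had the largest gain in size at passage 6. It had 18.1, 11.8 and 26.8 CPM on soft gel at passage 6 and 13.9, 8.85 and 9.79 CPM on soft gel at passage 3, against 70.2, 92.4 and 238 CPM on plastic at passage 6 and 30.6, 25.6 and 26.1 CPM on plastic at passage 3. All plastic libraries of passage 6 were above those of passage 3, while the soft gel libraries of the passages overlapped. Its mean pair difference was -2.62 ± 0.641 at passage 6 and -1.28 ± 0.176 at passage 3 (SD, n = 3 pairs).

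ENSRNOG00000009311, with the next largest gain, showed the other arrangement. It had 28.7, 23.5 and 12.5 CPM on soft gel at passage 6 and 50.1, 53.5 and 48.1 CPM on soft gel at passage 3, against 111, 107 and 57.6 CPM on plastic at passage 6 and 104, 94.1 and 107 CPM on plastic at passage 3. Here the soft gel libraries of the passages did not overlap and the plastic ones did. Its mean pair difference was -2.06 ± 0.125 at passage 6 and -0.99 ± 0.171 at passage 3 (SD, n = 3 pairs).

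In the opposite direction, ENSRNOG00000057880 had a mean pair difference of -1.44 ± 0.133 at passage 6 and -2.19 ± 0.141 at passage 3 (SD, n = 3 pairs). Its levels were 214, 80.7 and 45.0 CPM on soft gel at passage 6 and 152, 114 and 140 CPM on soft gel at passage 3, against 630, 199 and 126 CPM on plastic at passage 6 and 779, 488 and 621 CPM on plastic at passage 3. Replicate 1 was the highest library of passage 6 on both substrates, and the passages overlapped on both. The difference between the passages in pair difference is, apart from scaling, the passage change on soft gel minus that on plastic, so the order of the next values is fixed by how the genes were grouped. The 16 genes whose pairs of passage 6 all lay below had a median passage 6 over passage 3 log2 fold change of -0.12 on soft gel and 0.28 on plastic, and 9 of them were negative on soft gel and positive on plastic. The 6 genes whose pairs of passage 6 all lay above had medians of 0.63 on soft gel and 0.0035 on plastic.

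**Figure D4:**
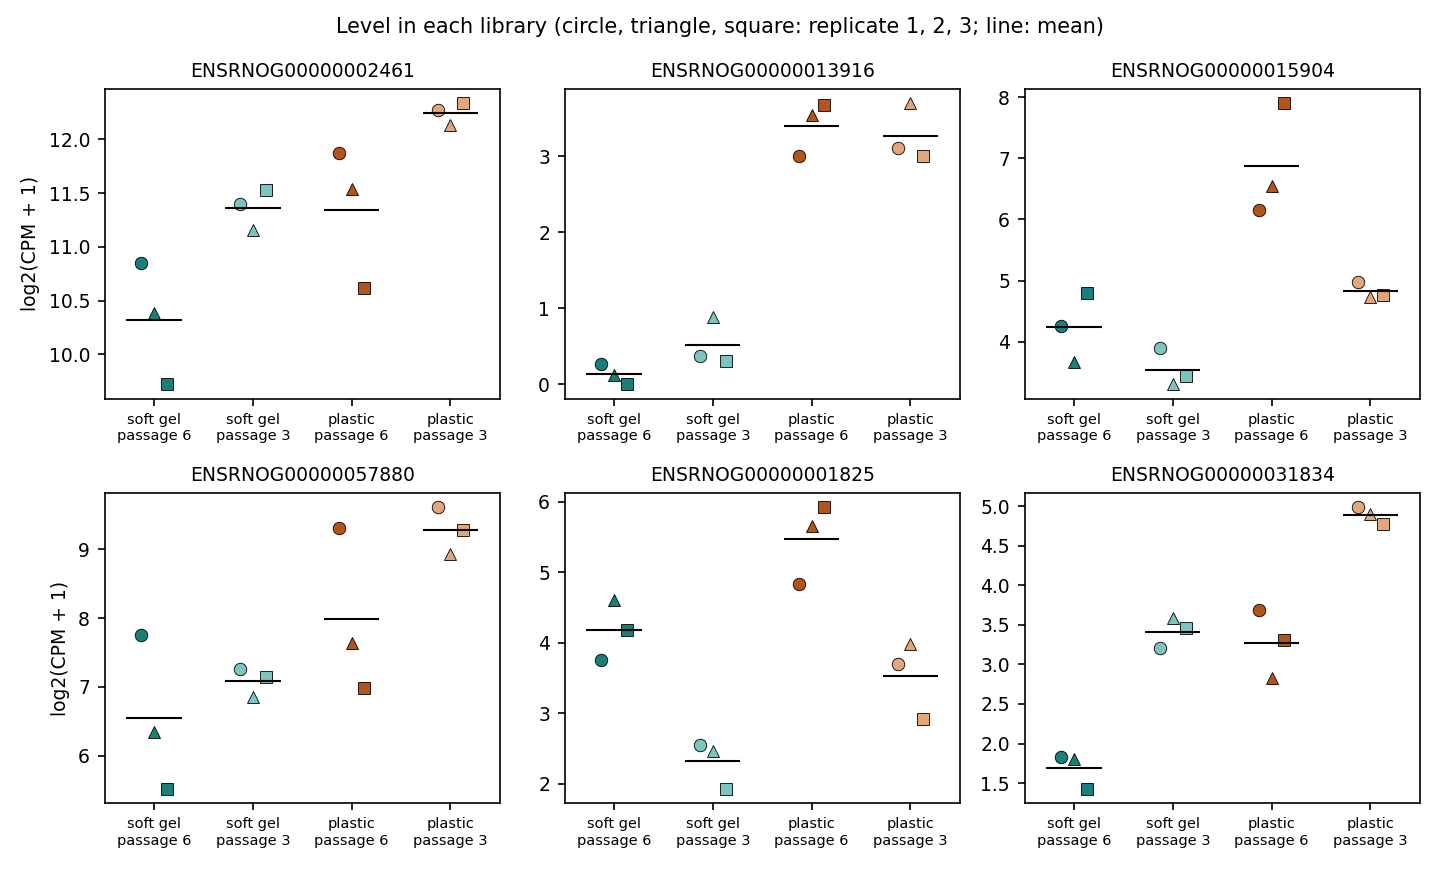
Level in log2(CPM + 1) of 6 members in each of the 12 libraries, with circle, triangle and square for replicates 1, 2 and 3 and a line at the mean of each group; the vertical axes differ between panels. ENSRNOG00000013916 sits near 0 on soft gel, and ENSRNOG00000001825 is higher and ENSRNOG00000031834 lower at passage 6 on both substrates. Among the 6 members drawn, replicates of passage 6 scatter most in ENSRNOG00000057880.

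The rule did not compare passages, but it used the levels of all 12 libraries, and a low soft gel or high plastic level at passage 6 helped a gene to enter. Counts and medians of the passage change over the members are therefore a description, and nothing about the members is read from how they compare with the whole table. The change of each gene with passage was fitted by edgeR's quasi-likelihood test with the 4 groups in one model, on TMM-scaled libraries. Benjamini-Hochberg adjustment ran over the 14660 genes. The model had no term for the pairs and treated the 12 libraries as independent, though same-number libraries within a passage correlated. Replicate numbers did not pair the passages, so passage cannot be told apart from a difference between the cultures used at each passage.

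On soft gel, passage 6 against passage 3, 3 members rose and 9 fell, and 41 did not pass. Of all tested genes, 6.76% rose and 5.5% fell, against 5.66% and 17.0% of the members. The median log2 fold change of the members was -0.21, with 35 of 53 negative and 18 positive. That of all tested genes was 0.033, with 54.1% of them positive. The libraries of the passages did not overlap in 11 of the 12 members called, and in 98.7% of all genes called. The counts moved when libraries were left out, and so did the share of all tested genes called. The count that fell was 3 without soft gel replicate 1 or 3 of passage 3 or without soft gel replicate 2 of passage 6, where 2.45%, 3.14% and 3.14% of all tested genes fell, and 5 without soft gel replicate 3 of passage 6, where 4.59% fell. It was 2 without both libraries of passage 3 replicate 1 or replicate 3 (1.35% and 1.90% of all tested genes) and 4 without those of passage 3 replicate 2 (2.96%). It was 5 without those of passage 6 replicate 2 (3.57%) and 15 without those of passage 6 replicate 1 (5.49%). The count that rose was 1 without any single library of passage 3 on soft gel (2.91% to 3.77% of all tested genes) or on plastic (5.30% to 5.37%), the plastic ones being fits added after the data were seen. It was also 1 without soft gel replicate 2 of passage 6 (4.15%), without both libraries of any one replicate of passage 3 (1.84% to 2.76%) and without both of passage 6 replicate 2 (4.30%).

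On plastic, passage 6 against passage 3, 4 members rose and 4 fell, which is 7.55% each, and 45 did not pass. Of all tested genes, 7.67% rose and 5.76% fell. The median log2 fold change of the members was 0.17, with 32 of 53 positive. That of all tested genes was 0.012, with 51.4% of them positive. The libraries of the passages did not overlap in any of the 8 members called, nor in 99.4% of all genes called. The count that fell was 2 without any one plastic library of passage 3, where 2.38% to 2.99% of all tested genes fell. It was 1 or 2 without both libraries of one replicate of passage 3 (1.62% to 2.27%) and 7 without both of passage 6 replicate 1 (6.38%). The count that rose was 2 without both libraries of passage 3 replicate 3, where 2.5% of all tested genes rose.

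Taken over both substrates, 38 members were called on neither, 1 rose on both, 4 fell on both and 0 were called in opposite directions. Of all tested genes, 80.8% were called on neither, 3.65% rose on both, 2.82% fell on both and 0.0205% were called in opposite directions. In 3 of the 4 that fell on both, 1 of the 2 calls was lost in most of the 18 fits that left out a library or a pair of libraries: it held in 8 for ENSRNOG00000009033 on plastic, in 7 for ENSRNOG00000007202 on plastic and in 4 for ENSRNOG00000028627 on soft gel. ENSRNOG00000007202 is named here after its values were seen. Fold changes within 1.5-fold with no call were found for 26 members on soft gel and 31 on plastic. The share of all tested genes that did so is not given here, so these counts describe the members alone. A gene without a call is not shown to be level: the log2 fold changes of members without a call ran from -2.31 to 0.95 on soft gel and from -0.99 to 1.57 on plastic.

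**Figure D5:**
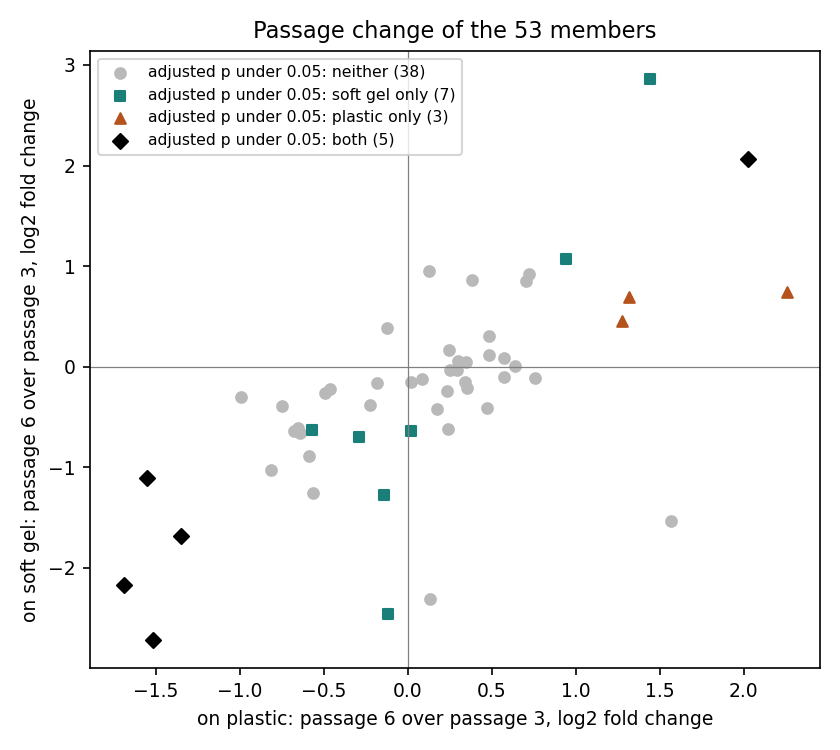
Log2 fold change of passage 6 over passage 3 on soft gel against that on plastic for the 53 genes (edgeR), with genes called on soft gel, on plastic, on both or on neither marked apart. Values run from -2.72 to 2.86 on soft gel and from -1.69 to 2.25 on plastic, and no gene is called in opposite directions.

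ENSRNOG00000001825 was the member that rose on both substrates. It had 12.5, 23.3 and 17.2 CPM on soft gel at passage 6, against 4.84, 4.55 and 2.81 CPM on soft gel at passage 3, and 27.6, 49.4 and 59.7 CPM on plastic at passage 6, against 11.9, 14.8 and 6.55 CPM on plastic at passage 3. The passages did not overlap on either substrate. By edgeR it rose by 2.06 on the log2 scale (SE 0.383, adjusted p = 0.00772) on soft gel and by 2.02 (SE 0.375, adjusted p = 0.00654) on plastic. It passed under all 24 alternatives run on each substrate, with a highest adjusted p of 0.0481 on soft gel and 0.0445 on plastic. Its pair differences kept a mean of -1.29 at passage 6 and -1.21 at passage 3.

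ENSRNOG00000031834 moved the other way on both. It had 2.54, 2.49 and 1.69 CPM on soft gel at passage 6, against 8.26, 11.0 and 9.96 CPM on soft gel at passage 3, and 11.9, 6.10 and 8.88 CPM on plastic at passage 6, against 30.7, 28.8 and 26.3 CPM on plastic at passage 3. It fell by 2.17 on the log2 scale on soft gel (SE 0.243, edgeR adjusted p = 0.000643) and by 1.69 on plastic (SE 0.234, edgeR adjusted p = 0.00169). The call held under all 24 alternatives on each substrate. Its plastic libraries of passage 6 overlapped its soft gel libraries of passage 3.

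ENSRNOG00000009033 fell most on soft gel among the members whose libraries did not overlap. It had 1.86, 1.79 and 4.0 CPM on soft gel at passage 6, against 14.4, 10.8 and 23.3 CPM on soft gel at passage 3, a log2 fold change of -2.72 (SE 0.423, edgeR adjusted p = 0.00309) that passed under all 24 alternatives. On plastic it had 6.36, 8.80 and 16.1 CPM at passage 6, against 27.0, 22.9 and 38.4 CPM at passage 3, a log2 fold change of -1.52 (SE 0.399, edgeR adjusted p = 0.0306). The call on plastic held in 8 of the 18 fits that left out libraries, with a highest adjusted p of 0.115.

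ENSRNOG00000028627 fell on plastic, where it had 88.1, 75.2 and 66.9 CPM at passage 6, against 215, 177 and 281 CPM at passage 3. Its log2 fold change there was -1.55 (SE 0.321, edgeR adjusted p = 0.0107), and the call was lost without both passage 3 libraries of replicate 1 (adjusted p = 0.0549) or of replicate 3 (adjusted p = 0.0594). On soft gel it had 53.8, 21.8 and 25.9 CPM at passage 6, against 67.9, 53 and 90.2 CPM at passage 3. The passages overlapped there, and the log2 fold change of -1.11 had an SE of 0.319 and an edgeR adjusted p of 0.0454. That call held in 4 of the 18 fits that left out libraries, with a highest adjusted p of 0.178, and was lost in the fit of the soft gel libraries alone (adjusted p = 0.111).

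The rise of ENSRNOG00000015904 on plastic, from the levels given above, was 2.25 on the log2 scale (SE 0.411, edgeR adjusted p = 0.00609), and it passed in 23 of 24 alternatives, the exception being the fit without both passage 3 libraries of replicate 3 (adjusted p = 0.0543). On soft gel its log2 fold change was 0.74 (adjusted p = 0.267). ENSRNOG00000009311 fell on soft gel by 1.28 on the log2 scale (SE 0.308, edgeR adjusted p = 0.0223), a call kept in 10 of 18 fits that left out libraries, and on plastic its log2 fold change was -0.14 (adjusted p = 0.799).

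The largest rise on soft gel was that of ENSRNOG00000003950, and it rested mainly on 1 library. It had 4.51, 17.2 and 1.81 CPM on soft gel at passage 6, against 1.03, 1.23 and 0.902 CPM on soft gel at passage 3. The rise was 2.86 on the log2 scale (SE 0.768, edgeR adjusted p = 0.0343), and the log2 fold change was 1.51 (adjusted p = 0.14) without soft gel replicate 2 of passage 6. It passed in 11 of 24 alternatives, with a highest adjusted p of 0.235. On plastic it had 13.6, 30.4 and 7.16 CPM at passage 6, against 5.74, 6.37 and 6.98 CPM at passage 3, where replicate 2 was again the highest (log2 fold change 1.44, adjusted p = 0.208).

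Whether the lower level on soft gel recurs in libraries that had no part in the choice was examined by applying the rule to one passage and reading the other. The pair differences read are those of the other passage alone. The edgeR fits held all 4 groups in one model, so libraries used for the choice also entered each gene's estimate of the spread. The 3 pairs of passage 3 alone took 166 genes, of which 31.9% were members. At passage 6 these genes had a median pair difference of -0.89, against 0.13 over all tested genes, and 66.9% of them were below 0 in all 3 pairs, against 13.9% of tested genes. By edgeR, 61 of the 166 (36.7%) were lower on soft gel at passage 6 and 0 were higher, where 5.09% of all tested genes were lower. With the replicate block, which compares libraries within pairs, 122 (73.5%) were lower and 0 higher, against 12.6% of all tested genes. The count of 61 was 34 without soft gel replicate 3 of passage 6, where 2.94% of all tested genes were lower, and 37 without plastic replicate 2 of passage 6, where 3.02% were.

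The 3 pairs of passage 6 alone took 176 genes, of which 30.1% were members. At passage 3 their median pair difference was -0.66, against 0.087 over all tested genes, and 84.1% were below 0 in all 3 pairs, against 19.0% of tested genes. By edgeR, 36 (20.5%) were lower on soft gel at passage 3 and 0 were higher, where 1.17% of all tested genes were lower, and with the replicate block 126 (71.6%) were lower and 2 higher, against 9.9% of all tested genes. Leaving out any one library of passage 3 brought the count of 36 to between 11 and 15, where 0.127% to 0.227% of all tested genes were lower.

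Leaving out one pair at a time, the genes chosen from the other 5 pairs were below 0 in the pair left out in 66 of 67, 60 of 85 and 68 of 70 cases for replicates 1, 2 and 3 of passage 6, and in 66 of 67, 57 of 57 and 61 of 61 cases for those of passage 3. Over all tested genes, the median difference was above 0 in every pair, and the share of them below 0 in a single pair is not given here. The rule's threshold was met in the pair left out by 53 of the chosen genes each time, which are the members themselves. Of all tested genes, 3.91%, 3.25% and 4.42% met it in replicates 1, 2 and 3 of passage 6. At passage 3, 2.74%, 3.25% and 2.16% met it. Replicate 2 of passage 6 was the pair that removed the most genes from the set: without it the rule took 85. The 5 pairs share passages with the pair left out but no library.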

How the data were processed

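The authors deposited one table of raw read counts per Ensembl rat gene for 12 libraries. Per the submitters' processing notes, the build was Rnor_6.0 and the tools named are HISAT2 2.1.0, Cuffnorm 2.2.1, Cufflinks and FastQC 0.11.5; how reads were counted (tool, strand setting, annotation release) is not stated, so reads of overlapping or near-identical genes could be assigned to the wrong gene. Genes were filtered with edgeR's filterByExpr by group (minimum count 10, minimum total 15), scaled by TMM and tested with edgeR 4.0.16 in R 4.3.3 (threshold 0.05), after a check on simulated counts. CPM for the rule used column sums and a pseudocount of 1. DESeq2 1.42.0 and limma 3.58.1 were alternatives, with other scalings, filters and left-out libraries. Tables and figures used matplotlib 3.10.9, pandas 2.3.3 and numpy 2.4.6 under Python 3.11.15. Library totals of 47834926 to 71464905 counts make counting error small beside replicate spread except for genes of a few CPM; counts are not independent molecules.

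Replicates differed by far more than sampling noise (chi-square per degree of freedom 30.9 to 346). Deviations from group means of the soft gel and plastic libraries with the same number correlated (passage 6: 0.505, 0.555 and 0.717; passage 3: 0.230, 0.414 and 0.434), so the replicate numbers were taken as pairs within a passage, from the data and not from the labels. Between passages the correlations ran from -0.291 to 0.0389. Numbers were not used as pairs there, except in an alternative fit with replicate number as an added term.

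The members, lists and tests were chosen with earlier results of these data known. Named genes were the first 2 by mean level, by median pair difference, by change of the difference between passages in each direction, by passage change in each direction among called genes without overlap, and nearest the threshold on each side, with a mean over the plastic libraries of at least 5 CPM for all but the first and, for passage change, a floor of 5 CPM on the mean of whichever passage was higher instead. The 25 gene lists, cell type markers among them, could not be matched to identifiers and were not counted.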

Additional observations from a re-analysis of the deposited data

How the results depend on the processing

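The set had 53 genes under total-count scaling, 94 under TMM scaling, 93 with DESeq2 size factors, 124 at a threshold of -0.5, 17 at a threshold of -1 and 57 to 85 with one pair left out. The median pair difference was -1.48 at passage 6 and -1.22 at passage 3; it was -1.62 and -1.34 under TMM scaling, -1.61 and -1.32 with DESeq2 size factors and -1.34 and -1.15 with a pseudocount of 2. With one pair left out it ran from -1.50 to -1.41 at passage 6. On soft gel, the 3 members that rose with passage were 1 and the 9 that fell were 5 in a fit of the soft gel libraries alone, where 3.87% of all tested genes rose and 3.55% fell, and leaving out libraries gave 1 to 4 and 2 to 15. On plastic, the 4 that rose were 7 with DESeq2, where 11.2% of all genes rose, and leaving out libraries gave 2 to 6 that rose and 1 to 7 that fell. A passage fit with replicate number as an added term links libraries of the same number across passages, though the numbers did not pair them. In that fit, 3 rose and 10 fell on soft gel (7.38% and 6.77% of all tested genes), and 5 rose and 5 fell on plastic (8.36% and 7.51%). Fits without a library of the other substrate were added after the data were seen. Of genes chosen at passage 3, 61 were lower on soft gel at passage 6 and 122 with the replicate block, with 34 to 75 on leaving out a library; of genes chosen at passage 6, 36 were lower at passage 3, 78 with DESeq2 (4.07% of all genes), 126 with the replicate block and 11 to 15 on leaving out a library. The cause of these shifts was not tested. None of the named passage changes recomputed under these alternatives changed direction. The median pair differences of the members were held below 0 by the rule, so their sign is no check, and a count has no direction. Summed levels and the pair differences of single genes were not recomputed. Genes of a few CPM rest on few counts, down to 0 in one library of ENSRNOG00000013916.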
